A study of Mus musculus with 9 samples.

Results

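The genes described here code for the 5 large enzyme families that handle foreign compounds: cytochromes P450 of families 1 to 4 (Cyp), carboxylesterases 1 and 2 (Ces), UDP-glucuronosyltransferases (Ugt), glutathione S-transferases (Gst) and sulfotransferases (Sult). The rule that chose them uses the gene symbol and a count in any library, and no level or difference. In the mouse annotation 148 protein-coding genes carry such a symbol, and 85 of them had a count in at least 1 of the 9 colon libraries, out of 22262 genes with a count. By family these were 37 of 75 Cyp, 12 of 15 Ces, 9 of 19 Ugt, 20 of 21 Gst and 7 of 18 Sult genes.

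Chemicals that enter with food, or that gut bacteria make, are first opened up in phase I of detoxification. There cytochromes P450 add an oxygen atom, and carboxylesterases split ester bonds. In phase II the transferases attach a glucuronic acid, a glutathione or a sulfate group, after which membrane pumps move the product out of the cell. In the intestine these enzymes sit mainly in the absorptive epithelial cells, and their levels are known to differ along the length of the gut.

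The mice were female wild-type C57BL/6N animals aged 12 months, with no transgene or treatment. WT_SE mice 1, 2, 3 and 5 lived in a standard environment, and WT_EE mice 1 to 5 in an enriched environment, a large shared cage with more bedding and nesting material, tunnels, running wheels and objects that were moved around. A piece of the upper colon was rinsed and frozen whole, so each library mixes epithelium, muscle, immune cells and any attached fat. In such bulk tissue, fewer cells of a type and less RNA per cell cannot be told apart. Each mouse gave 1 library of 3′ mRNA tags with molecular identifiers, so a count does not grow with transcript length. For the most abundant genes counts grew less than the library totals, as given further on, so a count is not read as 1 captured molecule. CPM, the counts scaled to a common library size, is the unit of level throughout.

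Totals ran from 295535 to 454043 counts, and the floor of 3 counts, under which a level was not read, equals 6.61 to 10.15 CPM. Markers of colon epithelium were plentiful in every mouse, at 986 to 1412 summed counts over 10 genes, and 1 of the 10 was called higher in WT_EE. Liver markers, which bear on liver-type enzymes, summed to 1 to 20 counts over 6 genes, most of them from Ttr, with albumin (Alb) at 0 in 7 mice, 3 counts in WT_SE mouse 1 and 1 in WT_EE mouse 5. Called with an unadjusted p under 0.05 were 3 of 8 smooth muscle genes (all higher in WT_EE), 2 of 10 fat genes, 2 of 3 B cell genes and 1 of 4 distal colon genes (all lower), 1 of 4 crypt base genes (higher), and 1 of 8 surface colonocyte genes in each direction. None of the 6 macrophage, 3 liver, 4 small intestine, 1 pancreas and 4 proximal colon genes tested was called. The library names of WT_SE mice 1 and 3 end differently from those of the other 7 mice. Since no WT_EE library shares that ending, part of the contrast between environments cannot be told apart from it. The mice also differed in markers of position along the colon, as described further on.

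Together the 85 genes took 0.390% to 0.582% of all counts in a mouse. The exact 95% intervals of these shares, which cover counting error only, were 0.369% to 0.412% in WT_EE mouse 4, the lowest, and 0.555% to 0.610% in WT_SE mouse 3, the highest. Of the 85, 33 stood above the floor in all 9 mice, 22 stayed at or under it in all 9, and 38 had a mean of at least 10 counts. A few genes carried each family. The 3 most abundant genes held 92.1% of the Ugt counts and 86.6% of the Sult counts, against 64.5% in Ces, 49.7% in Cyp and 49.5% in Gst.

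**Figure D1:**
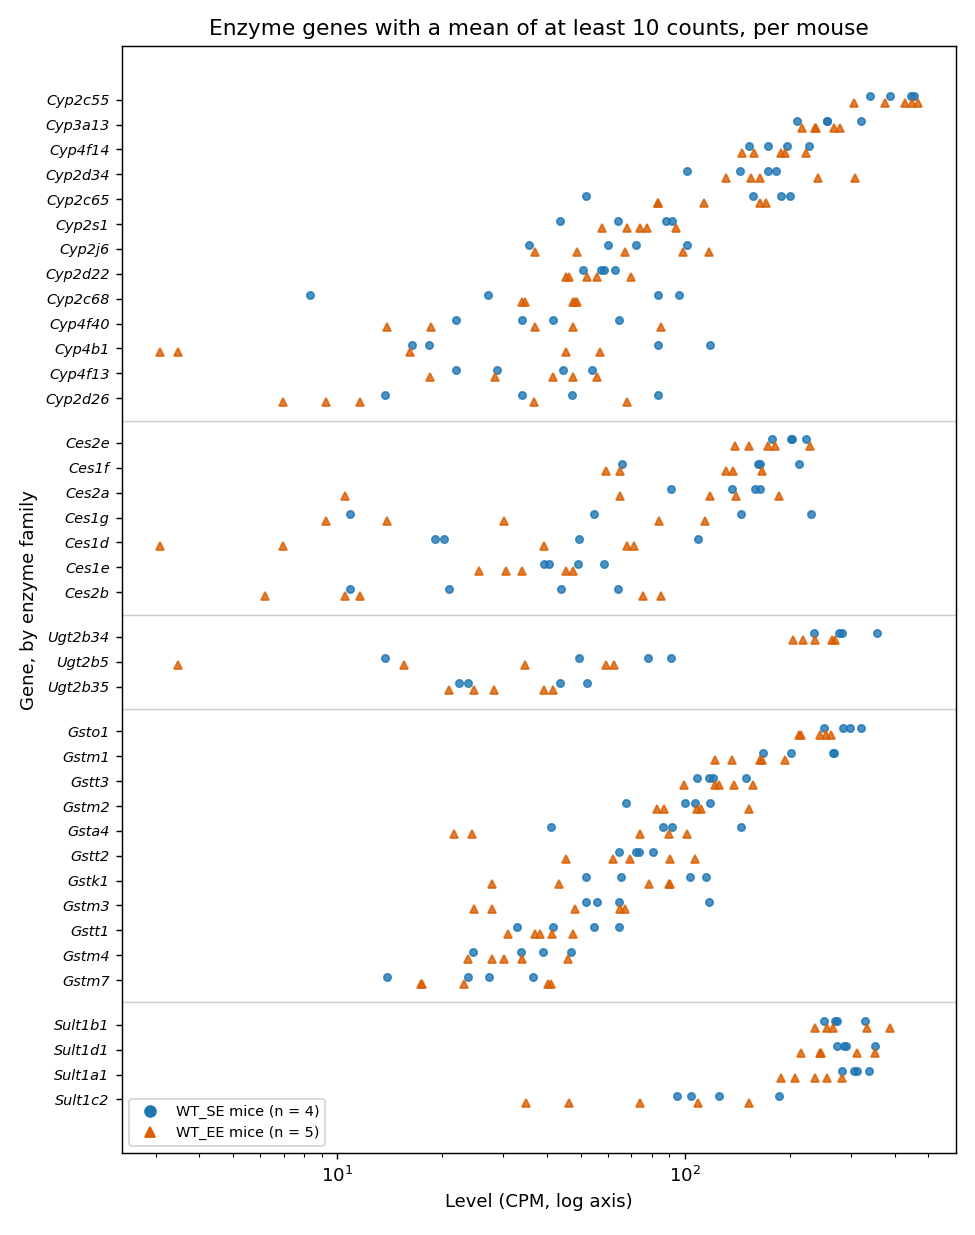
Level of each of the 38 enzyme genes with a mean of at least 10 counts, in CPM on a log axis, with 1 point per mouse (blue circles, WT_SE mice, n = 4; orange triangles, WT_EE mice, n = 5) and families separated by grey lines. Cyp2c55, Sult1b1, Sult1d1, Gsto1 and Ugt2b34 lie in a narrow band in all mice, whereas Ces1g, Cyp4b1, Ces1d, Ugt2b5 and Ces2b spread more than 10-fold across the mice. The genes in the narrow band have means of at least 90 counts, a range where counts grew less than the library totals.

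Among the cytochromes P450, the leading gene was Cyp2c55, which oxidises arachidonic and linoleic acid. It had 130, 163, 132 and 142 counts in WT_SE mice 1, 2, 3 and 5 and 216, 108, 196, 145 and 132 in WT_EE mice 1 to 5. Its level was 407 ± 53.8 CPM in the WT_SE mice (SD, n = 4) against 405 ± 65.0 CPM in the WT_EE mice (SD, n = 5), and the ranges overlapped throughout. Cyp3a13, the most abundant gene here of the drug-oxidising Cyp3a group, followed with 70 to 124 counts, and Cyp4f14, which inactivates leukotriene B4, with 51 to 90 counts. The 2 environments did not separate for either gene, with log2 fold changes (WT_EE minus WT_SE) of -0.07 (SE 0.14) for Cyp3a13 and -0.05 (SE 0.16) for Cyp4f14.

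Many of the best-known inducible or liver-type P450 genes had no count listed in the files used here, among them Cyp1a1, Cyp1b1, Cyp2b10, Cyp2c29, Cyp3a11, Cyp4a10 and Cyp4a14. For such genes the depth allows up to 3 counts per library, so a low level was not detectable rather than absent. Sharing of 3′ ends was looked at only for genes with a count, so reads left uncounted as ambiguous cannot be told apart from a low level. Cyp1a2 had 1 count in 1 mouse. Cyp1a1 and Cyp1b1 are the classical targets of the aryl hydrocarbon receptor (AhR), a sensor of ring-shaped pollutants and of plant and bacterial indoles. The AhR gene itself (Ahr) had 2 to 16 counts, and its repressor Ahrr, another target, had 3 counts over all 9 mice. Cyp2e1, the ethanol-oxidising enzyme that is also made in fat, had 8 counts in WT_SE mouse 1 and 0 to 4 in the others. WT_SE mouse 1 also had the most counts of the fat hormone Adipoq, 70 against 0 to 29 in the other mice, and the share of fat in the Cyp2e1 counts was not tested.

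The Cyp2c genes form a cluster on chromosome 19 (GRCm38, 39007019 to 40187333, holding 8 of the 85 genes), and they show how unequal neighbours were. Beside Cyp2c55, Cyp2c65 reached 19 to 79 counts and Cyp2c68 3 to 35. Cyp2c69 stayed at 0 to 5, and Cyp2c66, Cyp2c40, Cyp2c67 and Cyp2c70 had at most 2 counts in any mouse. The nuclear receptor HNF4 binds the promoters of many liver and gut genes at sites of the form CAAAGTCCA. These letters, on either strand, were found in the 250 bases before the RefSeq start of 6 of the 72 enzyme genes with a promoter entry, or 8.33%, against 0.451% of all 27025 genes with one, and all 6 are Cyp2c neighbours. They are printed below to show how alike these promoters are, as windows of 60 bases on the strand of the gene, from RefSeq on GRCm38.p6, with the site in capitals.
Cyp2c65: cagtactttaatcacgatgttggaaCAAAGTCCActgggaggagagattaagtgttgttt
Cyp2c68: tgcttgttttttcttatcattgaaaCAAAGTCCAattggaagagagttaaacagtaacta
Cyp2c67: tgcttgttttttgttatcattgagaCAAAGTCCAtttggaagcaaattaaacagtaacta
Cyp2c40: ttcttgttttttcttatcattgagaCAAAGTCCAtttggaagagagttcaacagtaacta
Cyp2c69: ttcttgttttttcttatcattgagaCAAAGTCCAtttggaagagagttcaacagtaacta
Cyp2c70: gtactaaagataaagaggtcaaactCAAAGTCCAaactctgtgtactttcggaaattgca
The windows lie at chr19:39060865-39060924 on the plus strand for Cyp2c65, and on the minus strand at chr19:39741144-39741203 for Cyp2c68, chr19:39649133-39649192 for Cyp2c67, chr19:39812825-39812884 for Cyp2c40, chr19:39886810-39886869 for Cyp2c69 and chr19:40187316-40187375 for Cyp2c70. Those of Cyp2c40 and Cyp2c69 are identical at all 60 bases, and that of Cyp2c68 matches both at 56 of 60, although its counts were many and theirs were at or near the floor. Cyp2c65 matches Cyp2c68 at 35 bases and Cyp2c70 at 17. The most abundant gene of the cluster, Cyp2c55, does not have these letters in its window. A match of letters is a description and shows neither binding nor a cause. The counts of this group also carry a limit, since 51.2% of the 50-base words at the 3′ end of Cyp2c68 recur in other genes, mostly Cyp2c40, and reads could be split among them.

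In all, 9 motifs were searched on both strands of the same 250 bases. The short form CAAAGT, part of the longer site, was in 31.9% of the enzyme promoters against 14.1% of all. The GATA site AGATAA was in 22.2% against 11.4%, the TATA box TATAAA in 22.2% against 14.3%, and the HNF1 element GTTAAT in 15.3% against 7.49%. Near the share of all genes were the CDX site TTTATG, in 12.5% against 12.4%, and the nuclear receptor element AGGTCA, in 16.7% against 15.8%. The AhR core GCGTG was in 20.8% against 30.9%, and the antioxidant element TGACNNNGC in 6.94% against 11.5%. As many of these genes are neighbouring copies, the shares do not come from independent promoters.

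Among the carboxylesterases, Ces2e and Ces2a belong to the group that splits many drug esters, and Ces1f, Ces1d and Ces1g to the group that also splits stored fat. Ces2e was the most abundant and the steadiest, with 45 to 106 counts. Ces1f, with 17 to 77 counts, and Ces2a, with 3 to 86, were far less even. Ces2a was near its usual level in most mice, with 52, 57, 27 and 60 counts in WT_SE and 86, 3, 64, 21 and 51 in WT_EE. WT_EE mouse 2 alone was at the floor. Ces1b, Ces2f and Ces2h had at most 1 count per mouse.

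Nearly all glucuronosyltransferase counts came from the Ugt2b group, which attaches glucuronic acid to steroids, bile acids and drugs. Ugt2b34 led with 76 to 108 counts per mouse, or 287 ± 50.3 CPM in the WT_SE mice (SD, n = 4) against 238 ± 28.6 CPM in the WT_EE mice (SD, n = 5). Ugt2b5, at 1 to 29 counts, and Ugt2b35, at 6 to 20, were lower. The Ugt1a genes, which conjugate bilirubin and plant phenols, had few counts, with Ugt1a7c at 1 to 12 counts and Ugt1a1, Ugt1a5 and Ugt1a6a at 0 to 6. All Ugt1a transcripts end in the same shared exons. Every 50-base word at the 3′ ends of Ugt1a1 and Ugt1a5 recurs in other Ugt1a genes, as do 93.6% of those of Ugt1a6a. Their 3′ tags thus cannot be assigned to a single gene, and part of the reads may have been left uncounted as ambiguous. The few Ugt1a counts therefore do not show that the level was low.

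Glutathione S-transferases were the most completely measured family, with 13 of 20 genes above the floor in all 9 mice. Gsto1, an omega enzyme that recycles vitamin C and reduces arsenic compounds, led with 69 to 120 counts. The mu enzyme Gstm1, with 35 to 102 counts, and the theta enzyme Gstt3, with 32 to 68, came next. The pi genes Gstp1, Gstp2 and Gstp3, a major group in many tissues, had at most 4 counts per mouse. Here 78.0% of the 3′ words of Gstp1 recur in Gstp2, so part of their reads may have been left uncounted as ambiguous. Likewise nearly all words of Gsta1 recur in Gm3776, 26.0% of those of Gstt3 in Gm20441, and 23.0% of those of Gstm1 in 3 other genes, mostly Gstm2-ps1.

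Nearly all sulfotransferase counts came from 4 genes. Sult1b1, which sulfates thyroid hormone and phenols, had 81 to 120 counts, Sult1d1, which acts on catecholamines, 93 to 113, and Sult1a1, the main phenol sulfotransferase, 54 to 131. Sult1c2 followed with 10 to 71. Sult1d1 varied less between mice than counting alone gives, with a variance over mean of 0.402. Across the 691 genes with a mean of at least 90 counts, sums grew with the library total with a log slope of 0.491, against 1.04 for the 3587 genes with 30 to 90 counts. The slope was 0.679 over the 7 enzyme genes in that range, but above 1 over those with fewer counts, at 1.40 for 10 genes with 30 to 90 and 1.82 for 21 genes with 10 to 30. Median totals were 362850 counts in WT_SE and 426436 in WT_EE. The part of depth in the differences, and in the narrow spread of the most abundant genes, was not tested.

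The comparison of environments asked whether long-term enriched housing changed these enzymes in the colon. After adjustment over all genes, no enzyme gene differed between WT_EE and WT_SE by edgeR with the Benjamini-Hochberg adjustment of its quasi-likelihood p-values, where 0.0401% of the 17441 genes tested passed. DESeq2 and limma-voom also gave 0. Without adjustment, 9 of the 72 enzyme genes tested, or 12.5%, had p under 0.05, beside 7.65% of all genes. All 9 were lower in WT_EE, where 3.34% of all genes were called, and none was higher, where 4.31% were. The 13 genes not tested were at or under 3 counts in every mouse. Over the 72 the median log2 fold change was -0.22, and -0.16 over the 52 with a mean of at least 3 counts, beside 0.01 over all genes. The median over the enzyme genes tested was -0.06 with the library ending as a covariate, -0.04 without WT_SE mice 1 and 3, and between -0.31 and -0.11 with 1 mouse left out (-0.11 without WT_EE mouse 2, -0.13 without WT_SE mouse 2 or WT_EE mouse 5, -0.14 without WT_SE mouse 3). Of the 72, 49 had a negative and 23 a positive value, and 68.1% negative compares with 48.9% of all genes.

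The families differed in their medians, with no test of the difference. The median log2 fold change was -0.58 for the 7 Ugt genes tested, -0.29 for 9 Ces, -0.22 for 31 Cyp, -0.17 for 19 Gst and -0.05 for 6 Sult, of which 3 were positive and 3 negative. Of the Ugt genes, Ugt1a1 (-2.0), Ugt1a6a (-1.69) and Ugt2b36 (-1.2) had means under 3 counts. The others, Ugt2b5, Ugt2b34, Ugt2b35 and Ugt1a7c, were at -0.58, -0.27, -0.18 and -0.17. Summed over its genes, the Ugt level was 412, 401, 524 and 350 CPM in WT_SE mice 1, 2, 3 and 5 and 341, 300.0, 358, 328 and 292 CPM in WT_EE mice 1 to 5. Only WT_EE mouse 3 exceeded the lowest WT_SE mouse. The Ces sum was lowest in WT_EE mice 2 and 4, at 352 and 377 CPM, against 549 to 944 CPM in the other 7 mice. These same 2 mice had the lowest median log2 deviations of the enzyme genes from the mean of all mice, at -0.41 and -0.29, against -0.16 to 0.20 in the others. Summed over the enzyme genes they stood at 4220 and 4070 CPM, but WT_EE mouse 5 was as low, at 4120 CPM. After scaling WT_EE mice 2 and 4 also had the most smooth muscle signal, at 3560 and 3510 CPM summed over 8 markers. The other 7 mice had 1920 to 2540 CPM, with WT_EE mouse 5 at 2400 CPM. The epithelium markers of WT_EE mice 2 and 4 were not low, at 3720 and 3870 CPM against 2820 to 3340 CPM. Before scaling, the muscle sums were 1022 and 1135 counts against 599 to 1039. The epithelium sums were 1068 and 1252 counts against 986 to 1412. The part of muscle in the enzyme levels, and that of depth in these sums, was not tested. No gene among the 72 had WT_EE mice all below or all above WT_SE mice, a pattern seen in 1.2% and 1.38% of all genes.

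Gstm1 and Sult1a1 had the smallest p-values. Gstm1 lies on the minus strand of chromosome 3 (GRCm38, 108012255 to 108017973), inside a row of 7 mu genes. It had 102, 60, 79 and 74 counts in WT_SE and 90, 35, 76, 44 and 71 in WT_EE. WT_SE mice 1 and 3 were highest, and WT_SE mouse 2 fell among the WT_EE mice. Its level was 226 ± 49.5 CPM in the WT_SE mice (SD, n = 4) against 157 ± 28.2 CPM in the WT_EE mice (SD, n = 5), a log2 fold change of -0.50 (SE 0.16), with an unadjusted edgeR p of 0.00335 and an adjusted p of 0.299. The two-sided exact permutation test over mice gave p = 0.0397.

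Sult1a1 lies on the minus strand of chromosome 7 (126672865 to 126676432). It had 117, 112, 100 and 103 counts in WT_SE and 131, 54, 117, 67 and 102 in WT_EE. After scaling, the WT_SE mice stood at 282 to 338 CPM and the WT_EE mice at 188 to 283 CPM, so that only WT_EE mouse 1 reached the WT_SE range. The mean of WT_SE was 309 ± 23.3 CPM (SD, n = 4) and that of WT_EE 234 ± 37.7 CPM (SD, n = 5), while the log2 fold change was -0.38 (SE 0.14), with an unadjusted edgeR p of 0.00878 and an adjusted p of 0.415. The two-sided exact permutation p was 0.0238.

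The other called genes were less even. Gsto1 was at 289 ± 29.2 CPM in the WT_SE mice (SD, n = 4) against 238 ± 22.5 CPM in the WT_EE mice (SD, n = 5), with a log2 fold change of -0.28 (edgeR unadjusted p = 0.0490, adjusted p = 0.649). Its ranges overlapped through WT_SE mouse 5 at 251 CPM and WT_EE mice 2 and 3 at 254 and 262 CPM. Gstm3 lies in the same mu row as Gstm1, with Gstm2 between them, which was not called (log2 fold change 0.15, edgeR unadjusted p = 0.471). Gstm3 owed much to WT_SE mouse 1, with 45 counts against 19 to 20 in the other WT_SE mice and 30, 8, 22, 8 and 29 in WT_EE. Its log2 fold change was -0.59 (edgeR unadjusted p = 0.0405, adjusted p = 0.620). Without WT_SE mouse 1 it was -0.23 and the call was lost (unadjusted p = 0.441 in the edgeR fit across all genes).

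Sult1c2 had 48, 34, 55 and 38 counts in WT_SE and 71, 10, 50, 15 and 32 in WT_EE. WT_EE mice 2 and 4 were low, while WT_EE mouse 1 had the most counts of all. The log2 fold change was -0.52 (edgeR unadjusted p = 0.0492, adjusted p = 0.649), and -0.29 without WT_SE mouse 3 and -0.35 without WT_EE mouse 2, with p of 0.300 and 0.146 (edgeR, unadjusted). Cyp2c69 and Ugt1a1, the remaining genes called, had at most 5 counts in any mouse and are not read further.

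Ces1g and Cyp4b1 had the largest log2 fold changes of the 7 called genes with a mean of at least 3 counts, and also the widest spread between mice. Ces1g (chromosome 8, 93302369 to 93337308, minus strand) splits fat and cholesterol esters. It had 21, 52, 68 and 4 counts in WT_SE and 39, 4, 52, 3 and 13 in WT_EE, with a log2 fold change of -0.96 (SE 0.44, edgeR unadjusted p = 0.0337, adjusted p = 0.590). The exact permutation p was 0.262, since values as low as 10.9 CPM and as high as 114 CPM occurred in WT_SE mouse 5 and WT_EE mouse 3. Keeping all genes in the fit, with no filter on low counts, brought the adjusted edgeR p to 0.00581 at nearly the same log2 fold change of -0.95, and without WT_SE mouse 3 the unadjusted p was 0.468 and the log2 fold change -0.35.

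Cyp4b1 (chromosome 4, 115624725 to 115647723, minus strand) oxidises fatty acids and activates some plant toxins. It had 7, 30, 35 and 6 counts in WT_SE and 21, 1, 26, 1 and 7 in WT_EE. The log2 fold change was -1.03 (SE 0.46, edgeR unadjusted p = 0.0321, adjusted p = 0.580) and the exact permutation p was 0.254. Without WT_SE mouse 3 it was -0.48 (edgeR unadjusted p = 0.350).

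**Figure D2:**
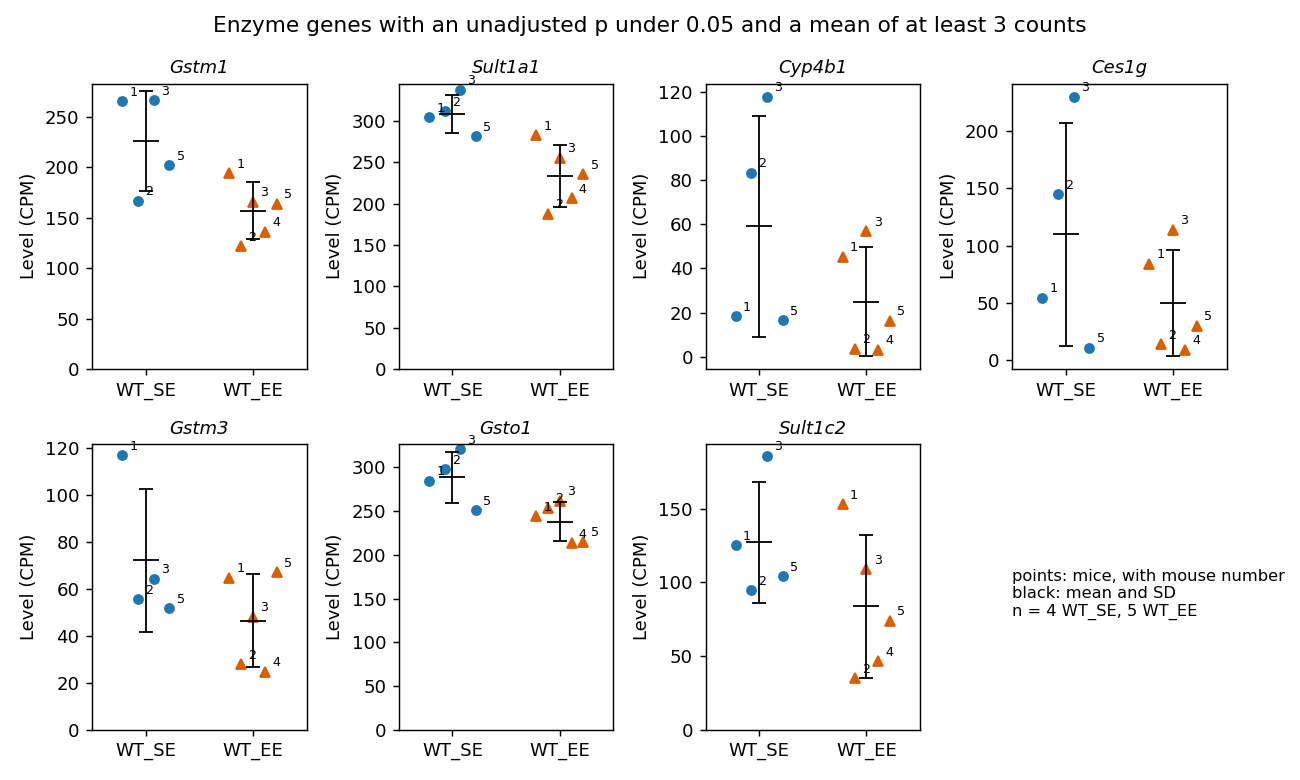
Level in CPM of the 7 enzyme genes with an unadjusted edgeR p under 0.05 and a mean of at least 3 counts, 1 panel per gene, with 1 numbered point per mouse and the mean and SD in black (n = 4 WT_SE, n = 5 WT_EE). Sult1a1 and Gsto1 are tight within environments, Gstm3 leans on WT_SE mouse 1 at 117 CPM, and in Ces1g and Cyp4b1 high and low mice occur in both environments.

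WT_SE mice 1 and 3, whose library names end differently, were left out together, which also lowers the power to call a gene. No other pair of mice was left out for comparison. Without those 2 mice, or with the ending as a covariate, none of the 9 genes called stayed under 0.05. Only 2 other genes were called there (2.82% and 2.78% of those tested, beside 3.98% and 3.94% of all genes), Cyp2d10 and Ugt1a6a, both with a mean of at most 5.44 counts and chosen after their values were seen. For the 7 genes with a mean of at least 3 counts the directions held, with Gstm1 at -0.20 and Sult1a1 at -0.31 without the 2 mice, which leaves 2 mice against 5. Over 23 alternatives, Gstm1 and Sult1a1 were each called lower in 20, Gstm3 in 12, Cyp4b1, Ces1g and Sult1c2 in 11, and Gsto1 in 9.

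**Figure D3:**
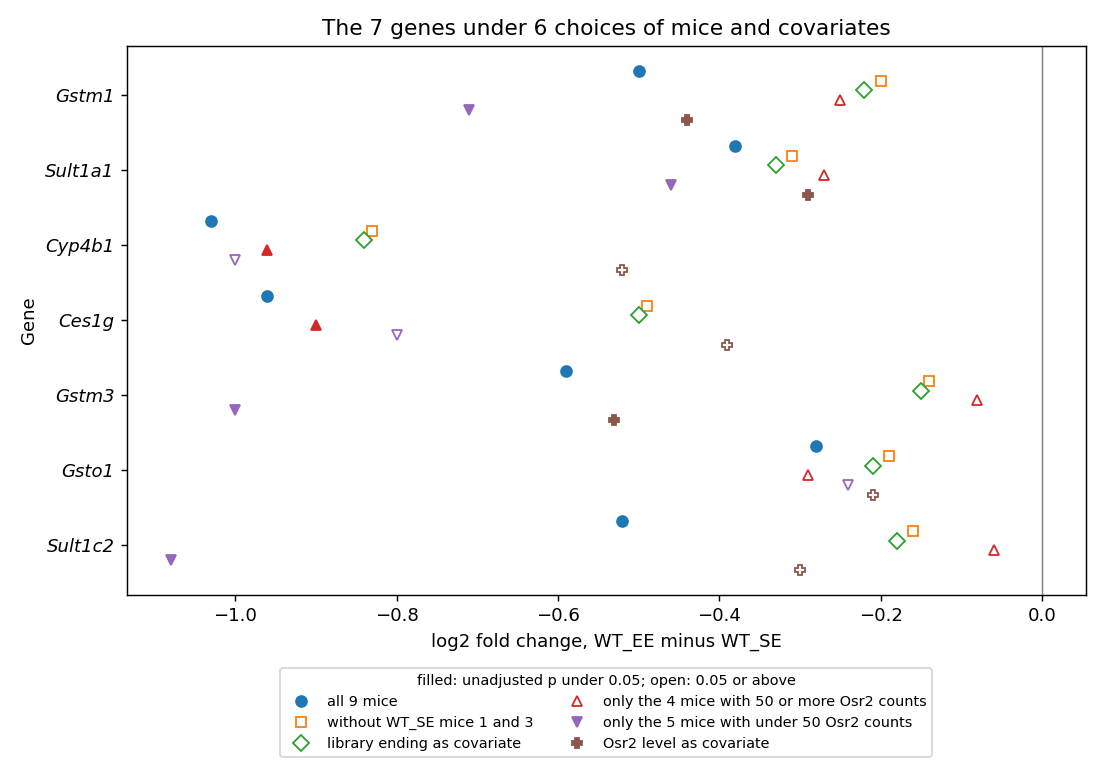
Log2 fold change (WT_EE minus WT_SE) of the same 7 genes with all 9 mice and with 5 other choices of mice or covariates. Filled symbols have an unadjusted edgeR p under 0.05 and open symbols do not. All values lie below 0, and those without WT_SE mice 1 and 3 are closer to 0 than those with all mice and open for all 7 genes.

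A second pattern among the enzymes ran across both environments. Osr2, a transcription factor gene on the list of markers of the proximal colon, had 93 and 81 counts in WT_SE mice 2 and 3 and 84 and 89 in WT_EE mice 1 and 3. In WT_SE mice 1 and 5 it had 7 and 1 counts, and in WT_EE mice 2, 4 and 5 it had 0. On the same list, the bile acid importer Slc10a2 divided the mice the same way, with 103 to 117 counts against 3 to 26, as did Hoxb6, with 18 to 43 against 2 to 11. Hoxa4 overlapped, at 3 to 7 against 1 to 4. Of the small intestine markers, the bile acid binding protein Fabp6 had 14 to 34 counts against 0 to 5. The sugar-splitting enzyme Sis had 8 to 23 against 0 to 1. Fabp2 on that list overlapped, at 92 to 117 against 97 to 122, and Rbp2 had at most 2 counts in any mouse. The water channel Aqp8, a surface colonocyte gene, was lower in the 4 Osr2-high mice after scaling, at 6.76 to 149 CPM against 211 to 373 CPM. It was lowest in WT_SE mice 2 and 3, at 17 and 2 counts against 68 to 111 in all other mice. The distal markers did not move as one. Hoxa13 was lower in the 4 Osr2-high mice after scaling, with 11 to 27 counts against 25 to 40, and Hoxb13 was at 0 in 3 of them and at 21 counts in WT_EE mouse 3. Hoxd10, at 5 to 22 counts against 0 to 2, and Hoxd11, at 14 to 28 against 4 to 11, were instead higher in the same 4 mice. These 4 mice are not a group of the study. They were set apart after the counts had been seen, and their enzyme levels are given as a description, with no test.

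In the 4 mice with 50 or more Osr2 counts, 13 of the 72 enzyme genes, or 18.1%, stood above all 5 other mice, beside 1.59% of all genes tested. None stood below them, beside 1.32% of all genes. Of the 13, Cyp3a25, Cyp2c66 and Gsta2 had 0 counts in the other 5 mice, so they passed the limit of 4 CPM only through the 4. They are thus no support for the pattern. Among genes with a mean of at least 10 counts the share was 9 of 38, or 23.7%, beside 1.78% of 8493 genes. That mean can be reached the same way, as by Cyp4b1 and Ces2b, with at most 7 and 8 counts in the other 5 mice. The 13 were 8 Cyp, 2 Ces, 2 Gst and 1 Ugt gene, and no Sult gene.

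The widest separations were in Cyp4b1, Ces1g and Ces2b. Cyp4b1 was at 45.3 to 118 CPM in the 4 mice and 3.09 to 18.3 CPM in the others. Ces1g was at 84.2 to 230.0 CPM against 9.28 to 54.8 CPM. Ces2b, an esterase of the intestine, had 23 and 13 counts in WT_SE mice 2 and 3 and 35 and 39 in WT_EE mice 1 and 3, against 2 to 8 in the other 5. Both environments thus held high and low mice for each of these genes.

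Further P450 genes with at least 10 mean counts followed the same mice with narrower gaps, namely Cyp2d26 at 36.7 to 83.5 CPM against 6.97 to 33.9, Cyp4f40 at 41.8 to 85.2 against 13.9 to 37.0, Cyp2j6 at 72.4 to 117 against 35.5 to 67.1 and Cyp2c65 at 164 CPM or more against 51.9 to 157. Of these Cyp2j6 makes signalling epoxides from arachidonic acid. In phase II, Ugt2b5 had 27 to 29 counts in the 4 mice and 1 to 19 in the others, and Gstk1, a transferase of mitochondria and peroxisomes, was at 89.6 to 115 CPM against 27.9 to 78.7 CPM. The remaining 4 genes, Cyp4v3, Cyp3a25, Cyp2c66 and Gsta2, had at most 14 counts in any mouse, and the last-named 2 at most 2.

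Other enzymes did not share the pattern. Cyp2d34 had 62 and 30 counts in WT_SE mice 2 and 3 and 76 and 60 in WT_EE mice 1 and 3, against 55 to 88 in the rest. Cyp2c68 was lowest in WT_SE mice 2 and 3, with 3 and 8 counts against 11 to 35. Cyp2c55, Sult1b1, Sult1d1 and Ugt2b34 differed little between any of the mice, with highest-to-lowest ratios of 1.53, 1.64, 1.64 and 1.74. Ces1d, whose highest level was 35.1 times its lowest, was high in 3 of the 4 mice at 31 to 39 counts but had only 6 in WT_SE mouse 3.

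**Figure D4:**
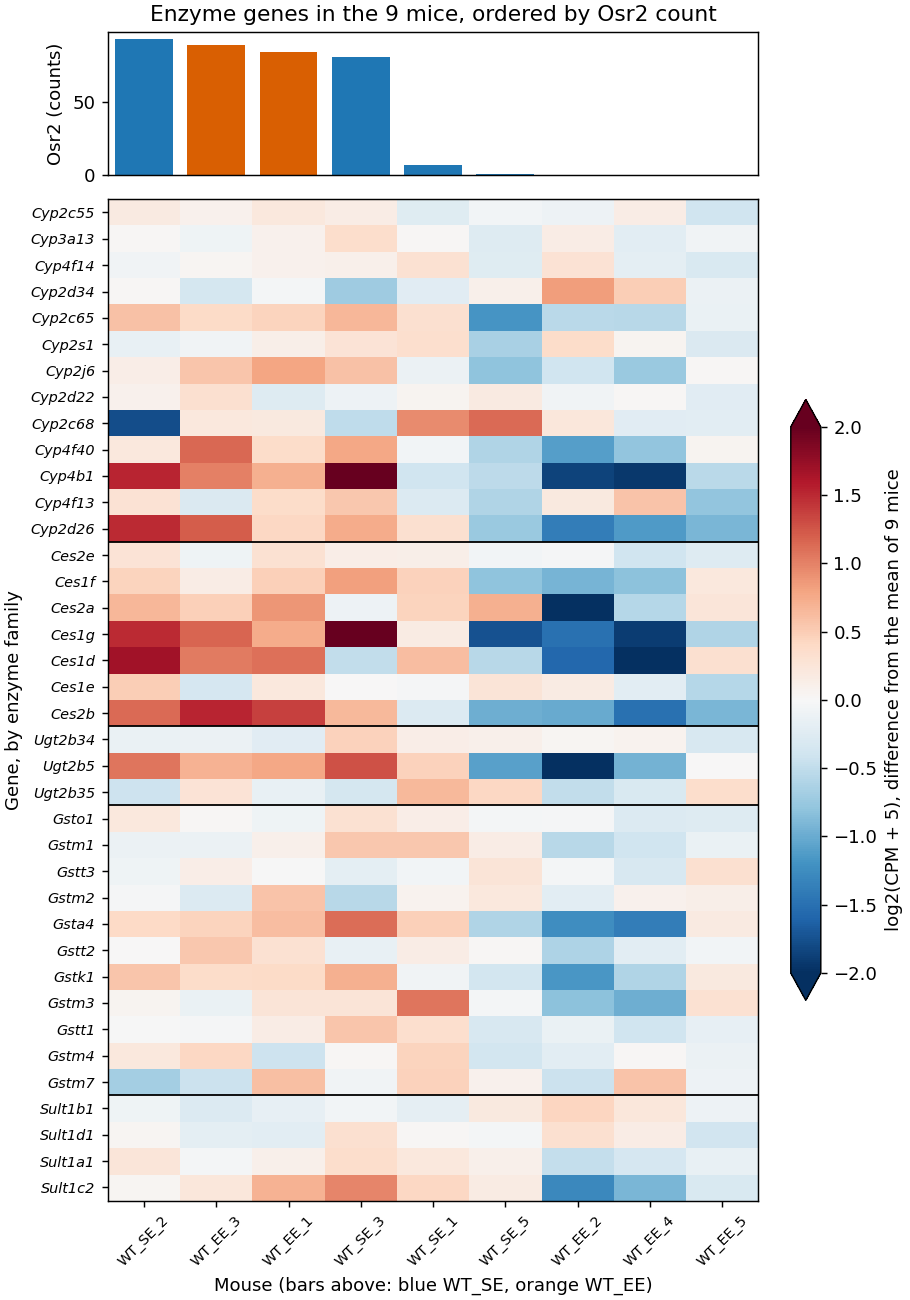
Upper bars, Osr2 counts per mouse (blue WT_SE, orange WT_EE), from the highest mouse on the left to the lowest. Lower panel, log2(CPM + 5) of the 38 enzyme genes with a mean of at least 10 counts, as the difference from the gene's mean over 9 mice (red above, blue below), with families separated by black lines. The 4 mice with 81 to 93 Osr2 counts are red for Cyp4b1, Ces1g, Ces2b, Cyp2d26 and Ugt2b5, and WT_EE mice 2 and 4 are blue for most carboxylesterases, while Cyp2c55 and most Sult genes stay pale.

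Within several clusters 1 gene separated the 4 mice without overlap and its neighbours did not. Counting only genes with a mean of at least 10 counts, this was Ces1g of 4 in the Ces1 cluster (chromosome 8, 93056728 to 93337308) and Ces2b of 3 in the Ces2 cluster (104734003 to 105021178). Ces1f, next to Ces1g, leaned the same way but overlapped, at 131 to 213 CPM against 59.3 to 164 CPM. It was Cyp2d26 of 3 in the Cyp2d cluster (chromosome 15, 82370527 to 82794294) and Ugt2b5 of 5 in the joint Ugt2b and Sult cluster (chromosome 5, 86889767 to 87569027). In the Cyp4f cluster (chromosome 17, 32506050 to 32947402) it was Cyp4f40 of 3. In the Cyp2c cluster it was Cyp2c65 of 3, together with its neighbour Cyp2c66 at no more than 2 counts. None of 5 mu transferases on chromosome 3 and none of 3 theta transferases on chromosome 10 separated the 4 mice.

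The genes most like the 5 most variable enzymes over the 9 mice, by Pearson r of log2 CPM among 8493 genes, were Tbx3, Ikzf2 and Slc17a4 for Ces1g (r of 0.977, 0.969 and 0.965), and Rnf186, Slc10a2 and Retsat for Cyp4b1 (r of 0.973, 0.970 and 0.970). For Ces2b they were Fmo5, Osr2 and 1810065E05Rik (r of 0.960, 0.957 and 0.951), and for Ugt2b5 they were Nts, Gstk1 and Slc51b (r of 0.976, 0.970 and 0.968). Ces1d was most like Mgat3, Tmem54 and Sar1b (r of 0.972, 0.956 and 0.941). Against the fat marker Adipoq the 5 enzymes had r of -0.100 to 0.240. These values are descriptions over 9 libraries that share both environment and depth.

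As 2 of 4 WT_SE and 2 of 5 WT_EE mice were high in Osr2, the comparison of environments was repeated within each side, a step chosen after seeing the data. Among the 4 high mice the median log2 fold change of the enzyme genes was -0.01, with 7 of 72 called (9.72%, beside 7.89% of all genes), 6 lower and 1 higher. Among the 5 other mice it was -0.31, with 10 of 65 called (15.4%, beside 8.0% of all genes), 9 lower and 1 higher. There 3 passed the adjustment, with adjusted edgeR p-values of 0.00774 for Ces2a, 0.0388 for Sult1c2 and 0.0432 for Cyp2c68, at log2 fold changes of -1.09, -1.08 and -1.21, from 2 WT_SE and 3 WT_EE mice. Among the high mice Ces1g passed, at -0.90 with an adjusted edgeR p of 0.0363, from 2 WT_SE and 2 WT_EE mice. Each side holds 1 of the 2 WT_SE libraries whose names end differently, mouse 3 among the high mice and mouse 1 among the others. WT_EE mice 2 and 4, with the most smooth muscle signal, are both among the others. Since the sides were drawn from these same counts, the adjusted p-values are not read as support for a difference. With the Osr2 level as a covariate over all 9 mice 7 were called (9.72%, beside 6.77% of all genes), among them 4 of the original 9. Gstm1 (-0.44) and Sult1a1 (-0.29) were still called while Ces1g and Cyp4b1 were not, at -0.39 and -0.52. Whether the effect of environment differed between the 2 sides was not tested.

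The rest of the pathway was read from lists of sensors, cofactor supply, pumps and other enzymes, of which 78 of 83 genes were tested. Of these, 5 were called higher and 10 lower in WT_EE by edgeR without adjustment, and none passed the adjustment. These are 6.41% higher and 12.8% lower, where 4.31% and 3.34% of all genes were called. With the epithelium markers as the scale 23 were called, beside 7.57% of all genes. Without WT_SE mice 1 and 3 only 4 were, beside 3.98%, with Cdx2, Ppara and Slc7a11 the ones still called of the 12 named here.

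Among 15 sensors, 2 with more than 3 mean counts were called. Cdx2, a transcription factor that sets intestinal identity, had 45, 34, 32 and 38 counts in WT_SE and 33, 13, 26, 27 and 32 in WT_EE. After scaling, every WT_EE mouse lay below every WT_SE mouse, at 66.2 ± 15.1 CPM (SD, n = 5) against 106 ± 9.47 CPM (SD, n = 4), and with a log2 fold change of -0.67 (edgeR unadjusted p = 0.00196, adjusted p = 0.244). The exact permutation p was 0.00794, the smallest the design allows. Of all genes tested, 1.2% were separated in this direction. Papss2, on the cofactor list, was also separated, with the same exact permutation p, but was not called (edgeR unadjusted p = 0.0688). Ppara, the fatty acid sensor that drives genes of fat oxidation, was at 88.4 ± 43.7 CPM in the WT_SE mice (SD, n = 4) against 40.1 ± 18.8 CPM in the WT_EE mice (SD, n = 5), with a log2 fold change of -1.04 (edgeR unadjusted p = 0.00109, adjusted p = 0.202). Its counts were 25, 39, 41 and 15 in WT_SE and 25, 6, 30, 9 and 14 in WT_EE, so the environments overlapped, and WT_EE mice 2 and 4 were again lowest. Both genes were called lower in all 23 alternatives. The third sensor called, Nr1i3, also separated the environments but had at most 3 counts per mouse. Hnf4a, whose site is shown above, had 82 to 116 counts and a log2 fold change of -0.13 (edgeR unadjusted p = 0.332).

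In glutathione supply both subunits of the rate-limiting enzyme were called lower. Gclc was at 240.0 ± 63.9 CPM in the WT_SE mice (SD, n = 4) against 168 ± 33.9 CPM in the WT_EE mice (SD, n = 5) (log2 fold change -0.49, edgeR unadjusted p = 0.00583), and Gclm at 180.0 ± 39.7 and 128 ± 30.7 CPM (-0.45, edgeR unadjusted p = 0.0128). Both calls were lost without WT_SE mice 1 and 3, at -0.31 and -0.20. The cystine importer Slc7a11 went the other way, with between 2 and 4 counts in the WT_SE mice against 3 to 11 in the WT_EE mice (log2 fold change 1.34, edgeR unadjusted p = 0.0133). These 3 were the called genes among 15 of electron and cofactor supply, and the P450 partner Por was at 44 to 68 counts with a log2 fold change of -0.12.

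None of the 11 export transporters and none of the 3 AhR targets tested was called. The pump gene Abcb1a had 96 to 176 counts and a log2 fold change of -0.09, and the AhR target Tiparp had 9 to 30 counts and 0.53 (edgeR unadjusted p = 0.0503). Among 36 other phase I and II enzymes, 3 were called higher and 6 lower. The lower ones included the aldehyde dehydrogenases Aldh1a1 (-0.54), Aldh3a2 (-0.42) and Aldh1b1 (-0.36) and the reductase Akr1c19 (-0.41), all as log2 fold changes.

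The higher ones were Ephx1, Aldh1a2 and Nat2. Ephx1, which opens the reactive epoxides that P450 enzymes make, had 5, 5, 4 and 7 counts in WT_SE and 14, 8, 11, 11 and 13 in WT_EE. Every WT_EE mouse lay above every WT_SE mouse after scaling, at 29.3 ± 3.65 CPM (SD, n = 5) against 14.9 ± 2.84 CPM (SD, n = 4), with a log2 fold change of 0.95 (edgeR unadjusted p = 0.0127, adjusted p = 0.458) and an exact permutation p of 0.00794. Of all genes tested, 1.38% were separated in this direction. Aldh1a2, which makes retinoic acid, had between 2 and 8 counts in the WT_SE mice against 7 to 19 in the WT_EE mice (log2 fold change 1.32, edgeR unadjusted p = 0.00413). The acetyltransferase Nat2 had 2 to 9 and 7 to 14 counts (0.86, edgeR unadjusted p = 0.0321).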

How the data were processed

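The 9 deposited files hold, per the labels and their values, whole-number counts of molecules per Ensembl gene, which the authors made without normalization from QuantSeq 3′ libraries. The submitters' processing notes name fastp 0.20.0, STAR 2.7.0f, featureCounts 1.6.0, Subread, UMI-tools and GRCm38. The paper names another STAR version, and the order of counting and collapsing is not given in the sources used here. GENCODE release 21 gave symbols and positions. Genes reaching 4 CPM in 1 library or more (17441) were fitted with edgeR 4.0.16 (TMM, quasi-likelihood, environment only) in R 4.3.3, with Benjamini-Hochberg adjustment over all of them. A call is an unadjusted p under 0.05. Exact permutation tests were two-sided over all 126 ways to part the mice. Replicates were separate mice, and pairs of 1 environment differed by a chi-square per degree of freedom of 1.17 to 2.3. Promoters came from RefSeq, matched by symbol. Shared 3′ ends were found as 50-base words in the last 500 bases of transcripts.

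The symbol rule uses no level or difference, but the families and the lists were chosen with earlier results of these data known. The text names called genes with a mean of at least 3 counts, the 3 most abundant per family, the 5 most variable (mean of at least 10 counts), the 12 pathway genes with the smallest p at or above the mean of 3 counts, and genes with shared 3′ ends. Osr2 and the genes that followed it, Cyp2d34, Cyp2c68, other low genes and pathway genes outside this rule were chosen after their values were seen. Alternatives were other filters, scalings, DESeq2 1.42.0, limma-voom (limma 3.58.1), a block for mouse number, the library ending, each mouse left out and a limit of 0.01. Fits by Osr2 level and the 8 mice without a block were added after seeing the data.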

Additional observations from a re-analysis of the deposited data

Results flagged for a closer look

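Of 66 sets of 4 or 5 mice (33 named genes in each environment), 1 held a mouse far from the others, where chance gives about 3.3, or 1 in 20. WT_SE mouse 5 had 19.1 CPM of Ephx1, from 7 counts, against 13.1 to 13.9 CPM in the other WT_SE mice.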

How the results depend on the processing

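Depth is a limit, as 22 of the 85 enzyme genes never passed 3 counts. The 9 calls became 2 of 72 with DESeq2, beside 3.69% of all genes, and 3 of 37 with edgeR's own filter, beside 9.36%. They became 2 of 72 with the library ending as covariate (3.94% of all genes) and 2 of 71 without WT_SE mice 1 and 3 (3.98%). At p under 0.01 there were 2, and 3 to 17 with 1 mouse left out. These were 17 of 72 without WT_SE mouse 5 (9.14% of all genes), 5 of 71 without WT_SE mouse 3 (5.19%) and 3 of 72 without WT_EE mouse 4 (6.4%). Of the settings with a share given, only those without WT_SE mouse 5 or 3 left the enzyme genes above all genes. Adjusted calls went from 0 to 1 with no filter, 1 in the Osr2-high mice and 3 in the others, and ranged from 0 to 0 with 1 mouse left out. The median of -0.22 became -0.06 with the library ending, -0.04 without WT_SE mice 1 and 3, -0.01 in the Osr2-high mice, -0.10 with the Osr2 covariate, and -0.31 to -0.11 with 1 mouse left out. The 15 pathway calls became 23 scaled to the epithelium markers (beside 7.57% of all genes) and 5 with the library ending (3.94%). They became 4 without WT_SE mice 1 and 3 (3.98%) and 9 with the Osr2 covariate (6.77%). At p under 0.01 there were 5, and 8 to 20 with 1 mouse left out (8 without WT_SE mouse 3, beside 5.19% of all genes). The cause of these changes was not tested.

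With the mouse number as a block (mice 1, 2, 3 and 5), 6 of 72 enzyme genes were called, beside 6.64% of all genes. In the same 8 mice with no block 3 were called, beside 6.4% of all genes. Same-numbered mice are different animals, their deviations correlated at -0.022 to 0.126, and the numbers were not taken as pairs. The block changed the sign of uncalled Ces1d (0.07) and Cyp4f14 (0.00).

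Other signs turned only for uncalled log2 fold changes. Leaving out 1 mouse gave ranges of -0.08 to 0.09 for Cyp2c55, -0.16 to 0.05 for Cyp3a13, -0.13 to 0.07 for Cyp4f14, -0.35 to 0.07 for Ugt2b35, -0.02 to 0.17 for Gstt3, -0.05 to 0.15 for Sult1b1, -0.61 to 0.44 for Ces1d and -0.26 to 0.76 for Ces2b. With the library ending, and without WT_SE mice 1 and 3, respectively, Cyp3a13 was at 0.08 and 0.10, Cyp4f14 at 0.15 and 0.16, Ces1f at 0.04 and 0.05, Gstt3 at -0.05 and -0.03 and Sult1b1 at -0.04 and -0.02. Scaled to epithelium markers, Gstt3 was at -0.00 and Sult1b1 at -0.03. In the Osr2-high mice Ces2a was at 0.35, Ugt2b35 at 0.55, Cyp4f14 at 0.06, Sult1b1 at -0.15 and Ces1d at 0.04. In the others Cyp2c55 was at 0.04, Cyp3a13 at 0.06, Gstt3 at -0.07, Sult1d1 at 0.04 and Ces2b at -0.72. With the Osr2 covariate Cyp2c55 was at 0.08, Sult1b1 at -0.06 and Ces1d at 0.07. Cyp2c55 was at 0.00 with no filter and with library totals, and Ces2b at -0.09 with limma-voom.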
